A study of Mus musculus with 6 samples.

Results

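The 10 genes described here encode adhesive glycoproteins of the extracellular matrix, the integrins that hold cells to them and the proteins that bind or cross-link the surrounding collagen. They were found in the table by their gene names (Fn1, Thbs1, Thbs2, Itga5, Itgav, Itgb1, Itgb3, Tgfbi, Lox and Sparc), and each name matched 1 of 41386 genes. Gene expression was measured by RNA-seq in hippocampus of mice aged 56 days, given as C57BL/6 in the labels and as male C57BL/6J in the methods, in 3 libraries of ischemia/reperfusion (I/R) and 3 of sham surgery. In the I/R group a filament blocked the middle cerebral artery for 1.5 h and was then withdrawn for 24 h of reperfusion, and in the sham group no filament was inserted. Both groups were operated on under isoflurane. The hippocampus was taken from the operated side, and each replicate held 3 hippocampi. The methods state pooling for the mass spectrometry runs and do not describe it separately for the RNA libraries, so a library may be a pool and not a single animal. No genetic change was named for either group.

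Fibronectin is laid down as fibrils outside the cell and is gripped by integrins, which are pairs of an alpha and a beta chain spanning the membrane. The pair of Itga5 and Itgb1 is the classical fibronectin receptor, and Itgav pairs with several beta chains, Itgb1 and Itgb3 among them, to bind vitronectin, fibronectin and the latent form of TGF-beta. Thrombospondins, Tgfbi and Sparc are secreted proteins that change how cells hold to the matrix rather than building it, and in the brain astrocytes are a known source of thrombospondins. Healthy brain tissue holds little fibrillar matrix outside the vessel wall and the meninges, and its basement membranes lie around the vessels.

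All 10 genes were higher after I/R. Tested by quasi-likelihood in edgeR, with Benjamini-Hochberg adjustment over 18569 genes, each passed an adjusted p of 0.05 with a fold change over 1.2, where 21.8% of all tested genes were called higher and 19.9% lower. The log2 fold changes ran from 0.43 for Sparc to 4.22 for Itga5 with a median of 1.29, while the median over all tested genes was 0.03. For each of the 10 genes the lowest I/R library was higher than the highest sham library, which held for 29.3% of tested genes. Itga5, Thbs1, Tgfbi and Lox formed an upper group with folds of 9.68 to 18.7, and the other 6 genes had folds of 1.35 to 2.71. Levels are given as CPM, the count of a gene over its library's total after TMM scaling, which corrects that total for shifts in RNA composition. In bulk tissue, more cells of a type and more RNA per cell cannot be told apart, and this holds for every difference below.

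**Figure D1:**
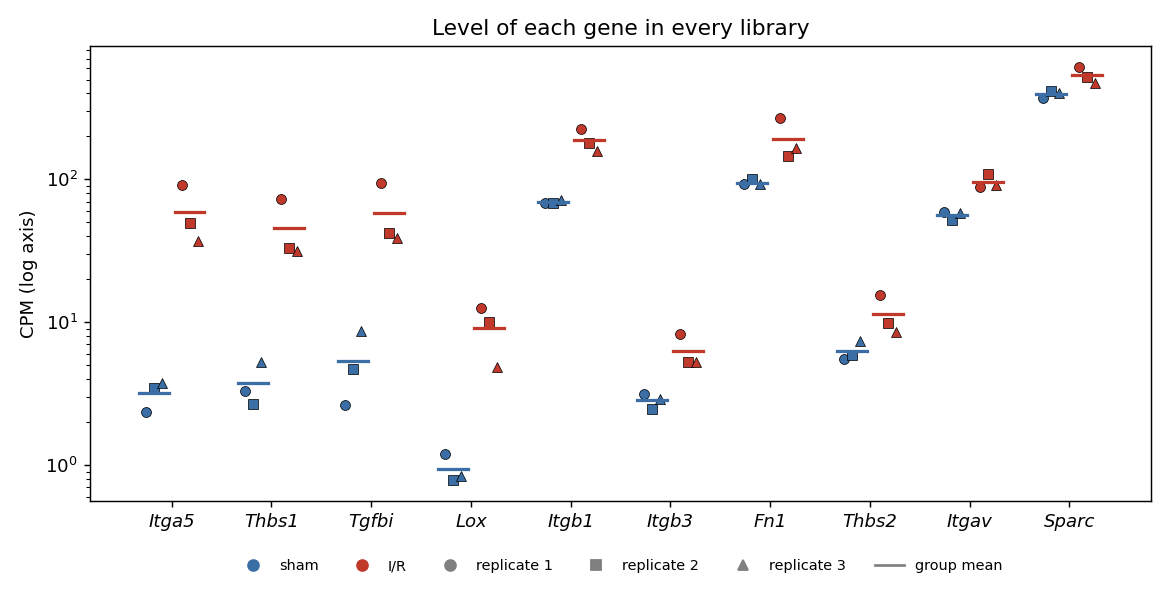
Level in CPM (log axis) of the 10 genes in each sham library (blue) and I/R library (red), in order of fold change; marker shapes give the replicate number and lines the mean of 3 libraries. The groups do not overlap for any of the 10 genes, and I/R replicate 1 is the highest library for 9 of them, the exception being Itgav.

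Total counts were 37493042 to 44788547 in sham and 37527226 to 39553637 in I/R. The TMM factors were 0.908 to 0.921 in sham and 1.06 to 1.15 in I/R. With library size alone as the scale, the median log2 fold change of all genes moved from 0.03 to 0.28 and the calls from 4054 higher and 3702 lower to 6328 and 2032, and the 10 genes stayed higher at 0.69 (Sparc) to 4.50 (Itga5). On the authors' FPKM, tested with limma, 75% of calls were higher with a pseudocount of 1 and 75.5% with 0.1, against 52.3% by TMM. Sham replicate 1 and I/R replicate 3 held little choroid plexus RNA, with a summed level of 10 choroid plexus markers of 196 and 193 CPM against 2349.6 to 6357 CPM in the other 4 libraries. Prox1, a marker of dentate granule cells, was present in both groups, at 138 ± 13.3 CPM in sham and 80.9 ± 11.3 CPM in I/R (SD, n = 3). It was called lower (log2 fold change -0.77, SE 0.12, edgeR adjusted p = 0.00255). As 1 gene it does not show whether the dissected tissue matched between the groups.

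Fn1, which encodes fibronectin, lies on the minus strand at chr1:69598423-69666845 (this and the other gene positions below are on the BALB/cJ assembly used by the table). Its level was 92.2, 100 and 93.2 CPM in sham replicates 1, 2 and 3 and 267, 147 and 165 CPM in the I/R replicates. The sham libraries were within 1.08-fold of each other, and I/R replicate 1 stood 1.71-fold above the mean of the other two. The mean rose from 95.2 ± 4.23 to 193 ± 64.4 CPM (SD, n = 3), which is 1.02 on the log2 scale (SE 0.21, edgeR adjusted p = 0.00633). Leaving out I/R replicate 1 lowered it to 0.71, the smallest value of 18 alternatives, and Fn1 was called higher in all 18.

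Thbs1 (thrombospondin 1, chr2:116133754-116148962, plus strand) and Thbs2 (chr17:12134758-12163513, minus strand) encode secreted proteins that bind integrins, the receptors Cd36 and Cd47 and proteases, and Thbs1 can release TGF-beta from its latent complex. Thbs1 had 130, 109 and 182 counts in the sham libraries and 3311, 1316 and 1259 in the I/R libraries. On the CPM scale that was 3.33, 2.68 and 5.29 against 72.7, 32.9 and 31.5. The lowest I/R library was thus far above the highest sham library, and I/R replicate 1 was 2.26-fold above the mean of the others. The log2 fold change was 3.61 (SE 0.40, edgeR adjusted p = 0.000735).

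Thbs2 was nearer to its sham level. It had 5.53, 5.9 and 7.38 CPM in sham and 15.5, 9.95 and 8.57 CPM in I/R, so that the highest sham and the lowest I/R library were close neighbours. The log2 fold change was 0.86 (SE 0.24, edgeR adjusted p = 0.0236). It fell to 0.56 without I/R replicate 1, and the call was lost without sham replicate 1 (adjusted p = 0.0852) or sham replicate 2 (adjusted p = 0.0886) and was kept in 15 of 18 alternatives. Within each library, the log2 ratio of Thbs1 to Thbs2 in FPKM was 0.13, -0.27 and 0.38 in sham and 3.09, 2.59 and 2.74 in I/R. The ratio rose by 2.73 on the log2 scale from 0.08 ± 0.33 to 2.81 ± 0.26 (SD, n = 3; two-sided exact permutation p = 0.1, the smallest that 3 against 3 allows; 0.15 after adjustment over the 3 ratios computed). The groups did not overlap in this ratio, although such a design cannot pass 0.05.

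Itga5, the alpha chain of the fibronectin receptor (chr15:101472788-101500846, minus strand), had the largest fold of the 10 genes and ranked 186 among 18569 tested genes by log2 fold change. It had 92, 140 and 129 counts in sham and 4163, 1981 and 1474 in I/R, or 2.35, 3.44 and 3.75 CPM against 91.4, 49.5 and 36.8 CPM. Every I/R library was therefore well clear of sham, with replicate 1 the highest. The mean went from 3.18 ± 0.732 to 59.3 ± 28.6 CPM (SD, n = 3), a fold of 18.7 (log2 4.22, SE 0.37, edgeR adjusted p = 0.000363).

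Itgb1, the beta chain that pairs with Itga5 and with many other alpha chains (chr8:127311820-127359167, plus strand), started from a higher level and varied little. Its level was 67.9, 68.5 and 71.4 CPM in sham and 225, 180.0 and 158 CPM in I/R. The fold was 2.71 (log2 1.44, SE 0.13, edgeR adjusted p = 0.000408), and over the 18 alternatives the log2 fold change stayed between 1.28 and 1.70.

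Itgav (chr2:81275838-81361798, plus strand) had 59, 51.9 and 58 CPM in sham and 88.6, 109 and 92.1 CPM in I/R. It was the 1 gene of the 10 whose highest library was I/R replicate 2 and not replicate 1. The log2 fold change was 0.78 (SE 0.10, edgeR adjusted p = 0.00134), with the lowest SE of the 10 genes. The log2 ratio of Itga5 to Itgav in FPKM was -5.51, -4.78 and -4.82 in sham and -0.82, -2.0 and -2.19 in I/R. It moved by 3.37 from -5.04 ± 0.41 to -1.67 ± 0.74 (SD, n = 3; two-sided exact permutation p = 0.1, 0.15 after adjustment over 3 ratios), and the groups did not overlap.

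Itgb3 (chr11:103622931-103679097, plus strand), the beta chain that Itgav shares with the platelet chain Itga2b, was a low-level gene in both groups. It had 123, 101 and 100 counts in sham and 378, 209 and 211 in I/R, or 3.15, 2.48 and 2.9 CPM against 8.3, 5.23 and 5.27 CPM. I/R replicates 2 and 3 were nearly equal and replicate 1 was higher. The log2 fold change was 1.14 (SE 0.24, edgeR adjusted p = 0.00717). The log2 ratio of Itgb3 to Itgb1 was -5.91 ± 0.18 in sham and -6.23 ± 0.17 in I/R (SD, n = 3), a difference of -0.31 with overlapping groups (two-sided exact permutation p = 0.2, also 0.2 after adjustment). A difference between these beta chains was not detected with 3 libraries a group.

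Tgfbi, a secreted protein named for its induction by TGF-beta that binds integrins and collagens (chr13:54317954-54348016, plus strand), had the most uneven sham level. It was at 2.64, 4.7 and 8.69 CPM in sham, a 3.29-fold spread, and at 93.7, 42.4 and 39.2 CPM in I/R. The gap between the groups was wider than that spread, and the log2 fold change was 3.46 (SE 0.49, edgeR adjusted p = 0.00165). Without I/R replicate 1 it was 2.94 with an adjusted p of 0.0266, and without sham replicate 3 it was 3.98.

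Lox, on chromosome 18, encodes lysyl oxidase, the copper enzyme that starts the cross-links of collagen and elastin. It had the lowest sham level of the 10 genes, with 47, 32 and 29 counts in sham and 575, 399 and 196 in I/R. In CPM this was 1.2, 0.787 and 0.842 against 12.6, 9.98 and 4.9, so the I/R libraries were spread but all above sham. The log2 fold change was 3.27 (SE 0.38, edgeR adjusted p = 0.000864). On the scale of log2(FPKM + 1) it was 1.47, since the pseudocount exceeds the sham level of this gene.

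Sparc, a collagen-binding glycoprotein (chr11:53203986-53229726, minus strand), was the most abundant of the genes and changed the least. Its level was 373, 416 and 403 CPM in sham and 616, 519.6 and 472 CPM in I/R. The mean went from 398 ± 22 to 536 ± 73.4 CPM (SD, n = 3), a fold of 1.35 (log2 0.43, SE 0.13, edgeR adjusted p = 0.0304). The call was kept in 12 of 18 alternatives. It was lost without sham replicate 1 (adjusted p = 0.124), sham replicate 2 (0.0825), sham replicate 3 (0.101) or I/R replicate 2 (0.0773), with log2 fold changes of 0.38 to 0.46.

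**Figure D2:**
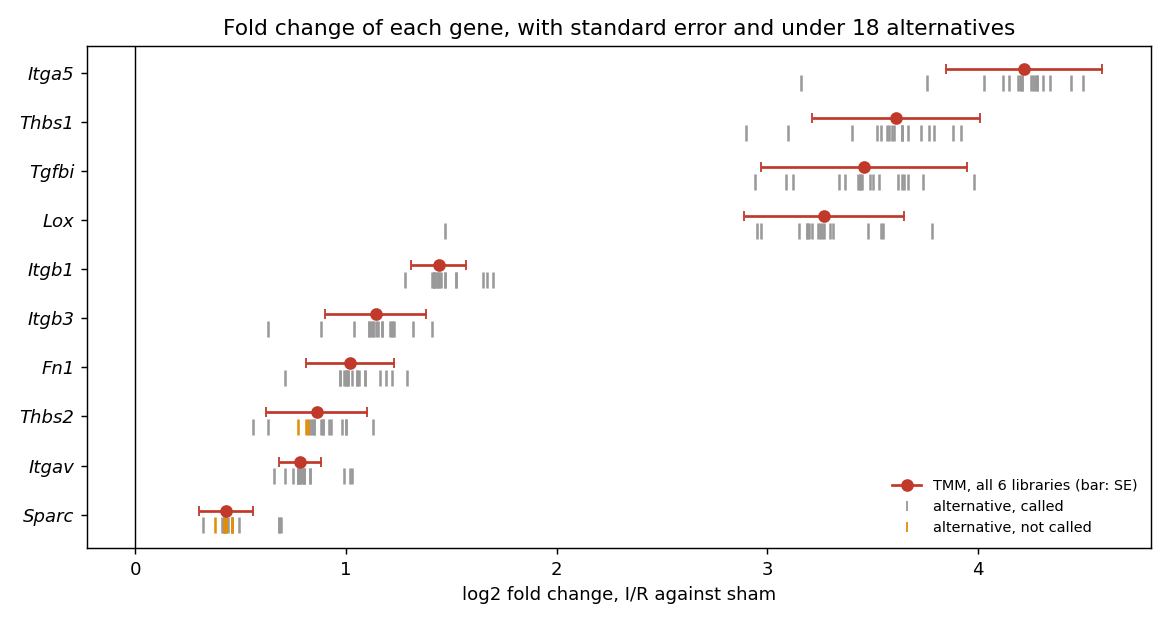
Log2 fold change of I/R against sham for each gene (red points, bars are the SE from edgeR's quasi-likelihood fit to 6 libraries), with a tick below it for each of 18 alternatives (grey, called; orange, not called). All ticks lie above 0, Thbs2 is not called in 3 alternatives and Sparc in 6, and the ticks near 1.47 for Lox and 0.63 for Itgb3 are from log2(FPKM + 1).

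Levels were compared between genes per length of transcript, in FPKM, the deposited values in which a count is divided by the length of its gene and the depth of its library. In sham the order was Sparc (287 FPKM), Itgb1 (31.4), Itgav (21.4), Fn1 (21.3), Tgfbi (1.83), Thbs1 (1.06), Thbs2 (0.969), Itga5 (0.665), Itgb3 (0.523) and Lox (0.214). The ranges over 3 libraries overlapped between Itgav and Fn1, between Tgfbi and Thbs1, between Thbs1 and Thbs2 and between Itga5 and Itgb3, and these neighbours had no order. Genes further apart in the list also overlapped: Tgfbi with Thbs2, and Thbs1 (0.748 to 1.49) with Itga5 (0.495 to 0.786). In I/R the first 2 places were still Sparc (463 FPKM) and Itgb1 (102), followed by Fn1 (52.2) and Itgav (43.7), which overlapped. The range of Fn1 (38.4 to 75.2) also overlapped that of Tgfbi (15.5 to 40.3). Next came Tgfbi (24.2), Thbs1 (15.6) and Itga5 (15), each overlapping its neighbour in this run, and then Lox (2.51), Thbs2 (2.11) and Itgb3 (1.39), again with overlaps. Itga5 was thus below the range of Thbs2 in sham and above it in I/R. The authors' FPKM used a shorter length than the table lists for 7 of the genes, up to 2.93-fold for Itgav. With the listed length, Thbs1 (0.59, range 0.416 to 0.83) was apart from and below Thbs2 (0.969, range 0.86 to 1.14) in sham, so the sham level of their ratio depends on the length used, while its difference between groups does not. On the same length Fn1 (10.5) was apart from and above Itgav (7.31) in sham, and in I/R Itga5 (15) and Itgav (14.9) overlapped.

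**Figure D3:**
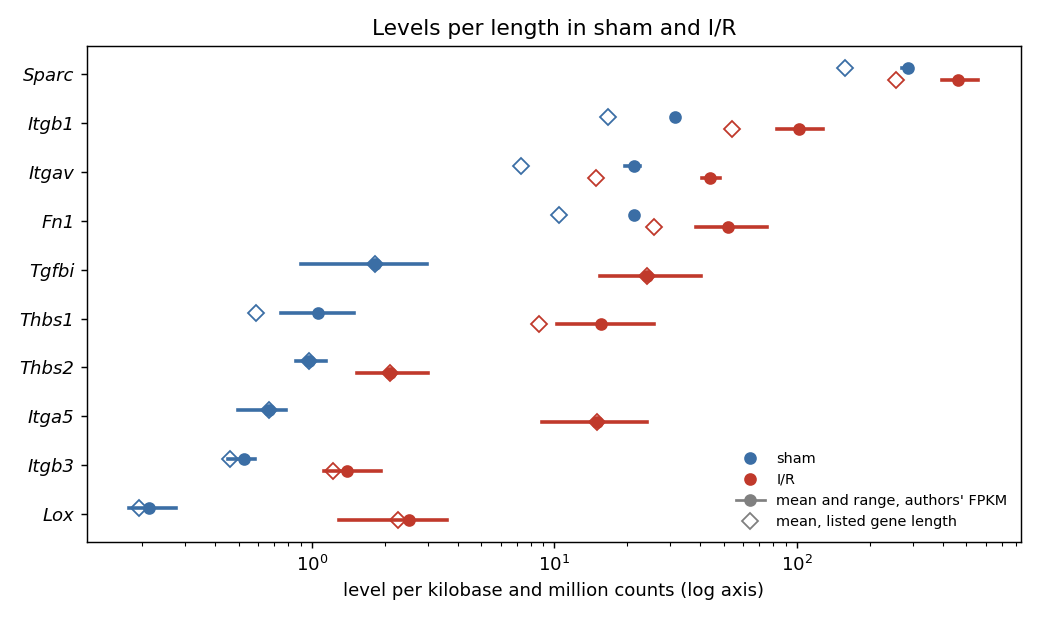
Level per kilobase of transcript and scaled to library size (FPKM, log axis) for the 10 genes in sham (blue) and I/R (red); points are means of 3 libraries in the authors' FPKM, lines run from the lowest to the highest library, and open diamonds are means computed with the gene length the table lists. Sparc is highest in both groups at 287 and 463 FPKM, and Itga5 moves from 0.665 to 15 FPKM.

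Promoter sequence from RefSeq (GRCm38.p6) was matched by symbol for 6 of the 10 genes: Itga5, Itgav, Itgb1, Sparc, Tgfbi and Thbs2. Fn1, Thbs1, Itgb3 and Lox had no entry. The 250 bases before the annotated start are shown for the 2 of these 6 genes with the largest rise, Itga5 and Tgfbi, for Itgb1, the partner chain of Itga5, and for Sparc, which rose least. Itga5 is at chr15:103366792-103367041 on the minus strand, Tgfbi at chr13:56609336-56609585 on the plus strand, Itgb1 at chr8:128685404-128685653 on the plus strand and Sparc at chr11:55420081-55420330 on the minus strand. Each is written 5′ to 3′ on the strand of its gene, and capitals mark a GC box or TEAD motif read on either strand.
Itga5: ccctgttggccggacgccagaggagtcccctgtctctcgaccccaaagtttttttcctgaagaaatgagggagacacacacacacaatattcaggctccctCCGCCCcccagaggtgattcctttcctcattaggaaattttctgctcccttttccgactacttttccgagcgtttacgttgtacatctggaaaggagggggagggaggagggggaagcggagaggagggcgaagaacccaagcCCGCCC
Tgfbi: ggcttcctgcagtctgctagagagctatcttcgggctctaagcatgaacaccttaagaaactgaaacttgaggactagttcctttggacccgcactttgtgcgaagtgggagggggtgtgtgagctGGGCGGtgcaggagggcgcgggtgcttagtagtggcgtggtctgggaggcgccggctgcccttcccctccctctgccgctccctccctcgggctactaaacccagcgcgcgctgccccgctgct
Itgb1: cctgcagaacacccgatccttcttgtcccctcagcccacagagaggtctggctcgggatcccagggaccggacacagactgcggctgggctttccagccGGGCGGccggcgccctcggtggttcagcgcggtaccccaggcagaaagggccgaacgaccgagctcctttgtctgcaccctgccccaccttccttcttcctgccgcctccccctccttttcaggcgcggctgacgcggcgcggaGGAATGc
Sparc: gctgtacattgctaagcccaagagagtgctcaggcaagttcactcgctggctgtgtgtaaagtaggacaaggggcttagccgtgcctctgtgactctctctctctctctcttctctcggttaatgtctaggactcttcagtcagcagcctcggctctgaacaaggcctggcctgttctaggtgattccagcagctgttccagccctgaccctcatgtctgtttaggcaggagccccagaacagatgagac
The GC box (GGGCGG), a site of the Sp family of factors, was searched on both strands and occurred at 149 and 6 bases before the start of Itga5, at 124 bases in Tgfbi and at 151 bases in Itgb1. It was in 32.7% of all 32851 promoter windows of the same length. The TEAD motif (GGAATG) occurred in Itgb1, 7 bases before the start, and in 12.6% of all windows. Like the other motifs, the TATA box (TATAAA) was searched on both strands, and it was found in 12.4% of windows. Its match in Thbs2, 126 bases before the start, lay on the strand opposite to the gene. The AP-1 motif (TGANTCA) was in 0 of the 6 windows and in 6.75% of all, and the CArG box in 0 of the 6 and 1.47% of all. No 2 of these motifs overlapped in the windows shown. The windows of Itga5 and Thbs2 begin at a start that differed from those of the GENCODE transcripts. These matches describe the letters only.

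The genes were read beside the other members of their pathway, in lists chosen by function. Of all tested genes 41.8% were called in either direction, and the counts below are to be read against that share and against the 21.8% higher and 19.9% lower. Of the other integrin subunits, 18 could be tested, of which 6 were higher, 1 was lower and 11 were not called, with a median log2 fold change of 0.49. The share called, 38.9%, was near that of all genes, with 33.3% higher and 5.56% lower. The largest rise was in Itga2, a collagen-receptor chain, at 2.78 (SE 0.73, adjusted p = 0.0176). Itga2 had few counts, 13, 7 and 3 in sham and 23, 105 and 42 in I/R. It was followed by Itgb2, the beta chain of leukocyte integrins, at 2.23 (SE 0.21, adjusted p = 0.000464). Next was Itga2b, the platelet chain, at 1.76 (SE 0.29, adjusted p = 0.00261). Itga4, which with Itgb1 binds fibronectin and Vcam1, was lower, from 45.5 ± 4.96 to 17.2 ± 6.11 CPM (SD, n = 3; log2 fold change -1.40, SE 0.24, edgeR adjusted p = 0.00304). Among the other beta chains that pair with Itgav, Itgb5 was at 43 ± 3.49 and 47.6 ± 14 CPM and Itgb8 at 75.5 ± 9.44 and 62.6 ± 10.2 CPM in sham and I/R (SD, n = 3), and neither passed the test. Without sham replicate 3, 3 subunits of the list were higher and 1 lower, where 2935 of 19246 tested genes were higher and 2545 lower.

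Of 19 other adhesive glycoproteins, 11 were higher, 3 lower and 5 not called, with a median log2 fold change of 1.30 and 57.9% of the list higher. Spp1 (osteopontin, an integrin ligand) went from 9.41 ± 2.01 to 681 ± 350.4 CPM (SD, n = 3; log2 fold change 6.17, SE 0.41, edgeR adjusted p = 0.000215). Tnc (tenascin C) rose by 4.39 (SE 0.36) and Ccn1, a matricellular integrin ligand listed under its older name Cyr61, by 3.99 (SE 0.33), each with an adjusted p of 0.000315. The glycoproteins that were lower were Tnr (tenascin R, a component of perineuronal nets, -1.04), Mfge8 (-0.57) and Vtn (vitronectin, -0.48). In the thrombospondin family, Thbs4 was higher (0.88, SE 0.25, adjusted p = 0.0235), while Thbs3 (0.22) and Comp (-0.27) did not pass.

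The families of Lox and Sparc were divided, with 4 of 11 genes higher, 4 lower and 3 not called, or 36.4% in each direction, and a median of 0.21. The lysyl oxidase-like genes Loxl2 (log2 fold change 2.63, SE 0.35, adjusted p = 0.00129), Loxl4 (1.8, SE 0.59, adjusted p = 0.0409) and Loxl1 (1.2, SE 0.24, adjusted p = 0.0054) rose, and Loxl3 (0.53) did not pass. Loxl4 had few counts, 5, 19 and 21 in sham and 98, 49 and 32 in I/R. Of the relatives of Sparc, Fstl1 rose (1.14, SE 0.18), whereas Spock1 (-1.14, SE 0.27), Spock2 (-1.10, SE 0.16), Sparcl1 (-0.80, SE 0.17) and Smoc2 (-0.54, SE 0.11) fell. Sparcl1, an abundant astrocyte gene, went from 2001 ± 42.8 to 1149 ± 199 CPM (SD, n = 3), opposite in sign to Sparc.

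Integrins are linked to actin inside the cell by talins, kindlins and their partners. Of 20 such adaptors tested, 10 were higher, 3 lower and 7 not called, with a median log2 fold change of 0.31 and 50% of the list higher. The kindlin of blood cells, Fermt3, rose by 2.33 (SE 0.26, adjusted p = 0.000748), filamin A (Flna) by 1.96 (SE 0.28, adjusted p = 0.00162) and talin Tln1 by 1.2 (SE 0.23, adjusted p = 0.00522). The other talin, Tln2, fell from 169 ± 8.61 to 67.9 ± 11.2 CPM (SD, n = 3; log2 fold change -1.32, SE 0.13, edgeR adjusted p = 0.000472). Ptk2b, a kinase abundant in neurons, was lower (-1.56, SE 0.36, adjusted p = 0.0104), and its relative Ptk2, the focal adhesion kinase, was at 109 ± 1.93 and 103 ± 3.9 CPM (SD, n = 3) and did not pass (-0.08, SE 0.07).

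Of 11 other receptors, a mixed list for fibronectin, thrombospondins and related ligands, 6 were higher, 1 lower and 4 not called, with a median of 1.28 and 54.5% of the list higher. Plaur, the urokinase receptor, rose by 5.21 (SE 0.49, adjusted p = 0.000432), Cd44, a hyaluronan receptor, by 4.53 (SE 0.26, adjusted p = 0.000169), and Sdc1 (syndecan 1) by 3.23 (SE 0.37, adjusted p = 0.000831). The thrombospondin receptors differed in direction: Cd36 rose by 2.11 (SE 0.30, adjusted p = 0.00158), Cacna2d1, the neuronal one, fell by 0.75 (SE 0.21, adjusted p = 0.0245), and Cd47 (-0.31, SE 0.11) did not pass. Of 11 laminin subunits, which build the basement membrane, 5 were higher, 1 lower and 5 not called, with a median of 0.39 and 45.5% of the list higher. Lama4 (1.47, SE 0.31) and Lama5 (1.10, SE 0.26) were among those that rose, and Lamc3 (-0.92, SE 0.18) fell. Without I/R replicate 1, 3 laminin genes were higher and 3 lower, where 4010 of 18739 tested genes were higher and 3966 lower.

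With library size alone as the scale, the numbers higher and lower were 10 and 1 for integrin subunits, 13 and 1 for glycoproteins, 5 and 3 for the Lox and Sparc families, 10 and 2 for adaptors, 7 and 0 for receptors and 6 and 1 for laminins. On that scale 6328 of 18569 tested genes were higher and 2032 lower, so these counts are to be read against that share. The split of higher against lower calls thus depended on the scale in several lists, as it did over all genes. The 10 genes were called higher on both scales.

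**Figure D4:**
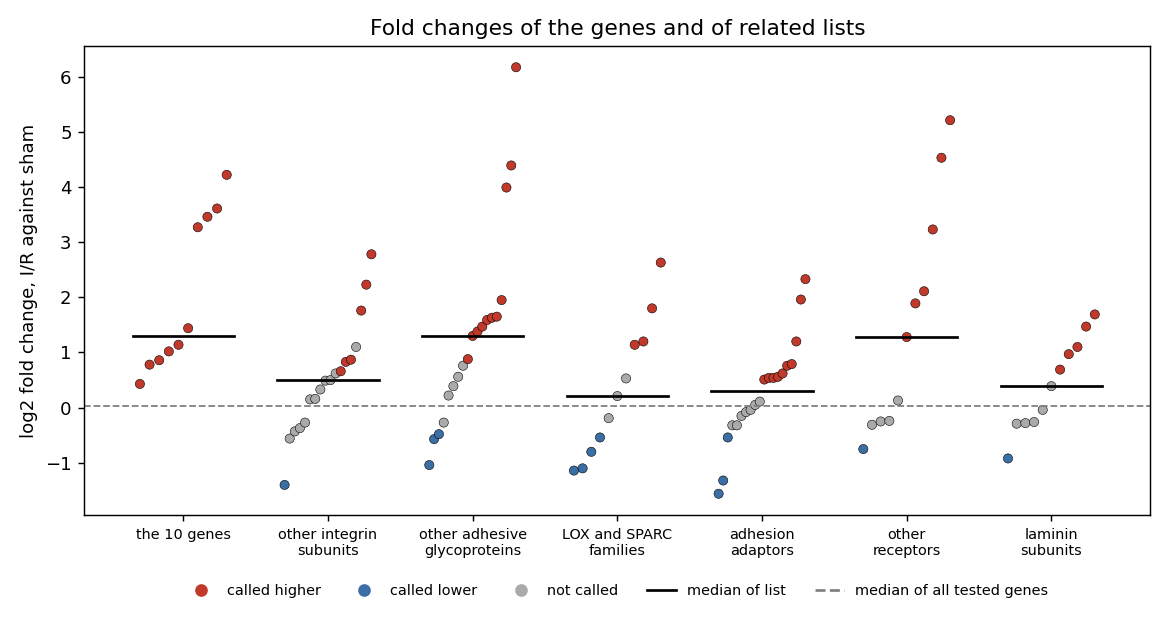
Log2 fold change of I/R against sham for the 10 genes and for 6 lists of related genes, 1 point per tested gene in rising order (red, called higher; blue, called lower; grey, not called). Black lines are list medians (1.29 for the 10 genes, 0.49, 1.30, 0.21, 0.31, 1.28 and 0.39 for the lists from left to right), and the dashed line is the median of all tested genes at 0.03.

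Markers of several cell types differed between the groups. The summed level of 10 endothelial markers was 308 to 311 CPM in sham and 821, 603 and 503 CPM in I/R replicates 1, 2 and 3, and 8 of them were called higher and 1 lower. The monocyte and macrophage sum was 12.4 to 16.5 CPM in sham and 77.9, 39.9 and 43.4 CPM in I/R, with 6 of 7 tested markers higher. The neutrophil sum was 4.12 to 5.73 CPM in sham and 40.4, 9.95 and 10.2 CPM in I/R, with 4 of 5 tested markers higher. Csf3r, at 3.88 CPM in sham and 4.68 CPM in I/R, was not called. Ly6g, Ngp and Cxcr2 were below the count filter and at 0 in all sham libraries. In I/R replicates 1, 2 and 3 Ly6g had 1, 0 and 0 counts, Ngp 5, 0 and 0 and Cxcr2 87, 10 and 9. The platelet sum was 12.9 to 13.5 CPM in sham and 31.7, 20.4 and 17.2 CPM in I/R, with 2 of 5 tested markers higher and 1 lower, and Itga2b is also one of the integrin subunits above. The neuronal sum was 12172 to 12397 CPM in sham and 2191, 4798 and 5440.5 CPM in I/R, with 7 of 7 tested markers lower.

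I/R replicate 1 was the highest library in the endothelial, monocyte, neutrophil and platelet sums and the lowest in the neuronal sum. The same library was highest in the fibroblast and meningeal sum (440.5 CPM) and the microglial sum (355 CPM). In the mural sum it was barely so, at 326 CPM against 325 CPM in sham replicate 2. It was also the highest I/R library for 9 of the 10 genes, where 73.1% of all genes called higher had their highest value there. The median ratio of replicate 1 to the mean of the other I/R replicates was 1.69 for the 10 genes and 1.25 for all genes called higher. The part of these cell types in the rise of the 10 genes was not tested. Without I/R replicate 1 all 10 genes were still called higher, where 4010 of 18739 tested genes were higher and 3966 lower.

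The sums of mural cells, fibroblasts and meninges, microglia, astrocytes and oligodendrocytes were 0.963, 1.09, 1.08, 0.917 and 0.805 times the sham mean in I/R, although genes within these lists moved. Of 10 fibroblast and meningeal markers 5 were called higher, the matrix genes Col3a1 (log2 fold change 2.07), Lum (1.53), Dcn (0.94) and Col1a1 (0.48) and the enzyme Aldh1a2 (2.82), and Ogn was lower (-1.11). Igf2, the most abundant of that list in sham, was at 143 ± 75.5 CPM in sham and 78.9 ± 28 CPM in I/R (SD, n = 3) and did not pass. The sum of that list leans on Igf2 in sham, so its ratio of 1.09 does not describe the other markers. The numbers higher and lower were 3 and 4 of 10 for mural cells, 3 and 4 of 9 for microglia, 2 and 5 of 8 for astrocytes and 0 and 3 of 7 for oligodendrocytes. The choroid plexus sum varied within both groups, and 0 of its 10 markers were called. Among the 4 libraries rich in choroid plexus RNA, 9 of the 10 genes were called higher, with log2 fold changes of 0.83 (Itgav) to 4.28 (Itga5), and Sparc was not (0.46, edgeR adjusted p = 0.111). In that setting 2796 of 18816 tested genes were called higher and 2459 lower. With the choroid plexus level as a covariate in all 6 libraries, all 10 were called, at 0.44 (Sparc) to 4.27 (Itga5). With that covariate 3808 of 18569 tested genes were called higher and 3441 lower.

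**Figure D5:**
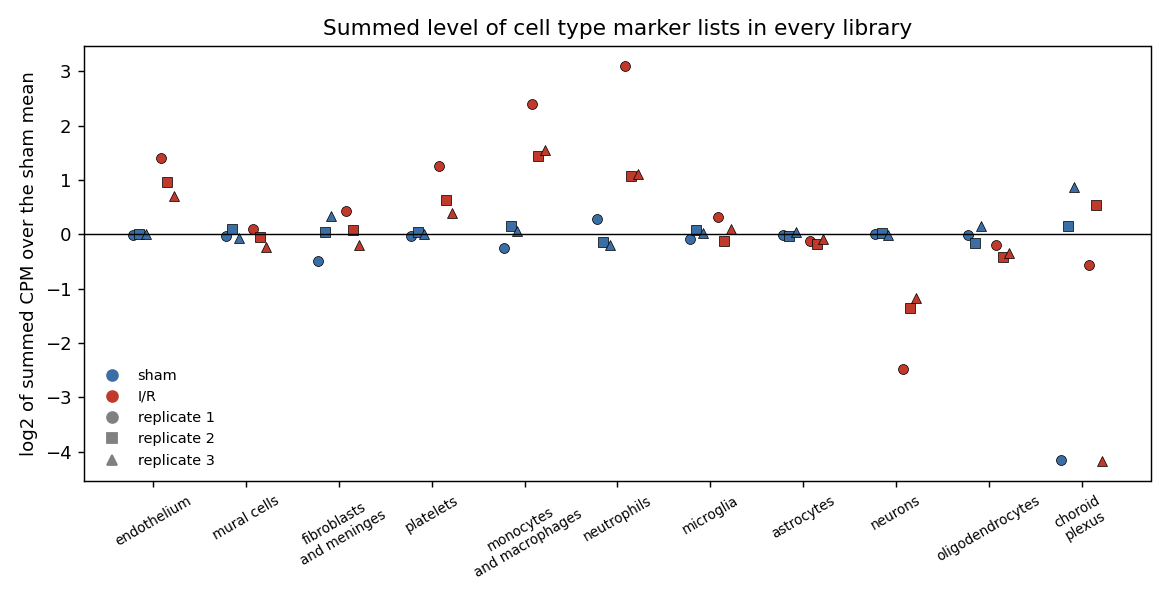
Summed CPM of each cell type marker list in every library, as the log2 of its ratio to the sham mean (sham blue, I/R red; marker shapes give the replicate). Endothelial, platelet, monocyte and neutrophil sums are above sham in every I/R library and highest in replicate 1, neuronal sums are below sham, and sham replicate 1 and I/R replicate 3 are low in choroid plexus markers at 196 and 193 CPM.

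The profile of each gene over the 6 libraries was compared with that of 16193 other named genes, as the root mean square difference of log2 CPM after subtracting each gene's own sham mean. The closest gene was Tnfrsf12a for Itga5 (difference 0.137), Casp4 for Thbs1 (0.069), Mdfi for Tgfbi (0.256) and Kdelr3 for Lox (0.145). For the genes of lower fold it was Artn for Fn1 (0.043), Aff1 for Itgb1 (0.050), Zak for Itgb3 (0.070), Plpp2 for Thbs2 (0.069), Sf3b1 for Itgav (0.062) and Nrf1 for Sparc (0.032). These likenesses rest on 6 libraries in 2 groups and describe the values only.

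Stretches of 50 bases shared with other genes made up 0.589% of those in the transcripts of Fn1, 0.601% in Sparc, 0.0688% in Itgb3 and 0.0262% in Tgfbi, and 0 in the other 6 genes. Genes that overlap Fn1, Itgav, Thbs1 or Itga5 in the table had between 0 and 39 counts over all 6 libraries together.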

How the data were processed

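Hippocampal RNA of 3 sham and 3 I/R libraries was sequenced. The deposited table gives counts per gene. The methods name TopHat2 with an Ensembl genome and HTSeq, the submitters' processing notes name Bowtie 0.12.2 and the build mm8, and the gene identifiers are of Ensembl's BALB/cJ annotation, so which alignment made the counts is not certain. BALB/cJ is not the strain of the mice (C57BL/6 in the labels, C57BL/6J in the methods). Whether counting used the strand was not stated. The authors also deposited FPKM, computed with a gene length that equalled the listed one for 26% of genes over 50 counts in every library and was otherwise shorter. A column of gene lengths was used, and the authors' own p-values were not.

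The table's 41390 lines held 41386 genes after 4 split lines were rejoined. Of 202 listed symbols, 198 were in the table, 2 of them under older names. Itgad, Itgax, Ly6c2 and Map2 were not analysed here. Counts were filtered with filterByExpr, scaled by TMM and tested with edgeR 4.0.16 (R 4.3.3; glmQLFit with robust estimation, glmQLFTest), with Benjamini-Hochberg adjustment over all tested genes. Calls needed an adjusted p below 0.05 with a fold above 1.2 either way, the SE was the log2 fold change over the square root of F, and CPM are relative to TMM-scaled library sizes. Ratios of 2 genes were tested by exact permutation (scipy 1.17.1). The fit was tested on simulated counts. Alternatives used DESeq2 1.42.0, limma 3.58.1 and other scalings, filters and sets of libraries. The named genes were the 10 genes, in each related list up to 3 called genes with the largest rise and 2 with the largest fall plus those discussed as partners or relatives, and the closest profiles. The values of 1 gene named by this rule are not reported here. Thbs3, Comp, Loxl3, Itgb5, Itgb8, Ptk2, Cd47, Cd36, Sparcl1, Smoc2, Fstl1, Vtn, Thbs4, Prox1, Csf3r, Ly6g, Ngp, Cxcr2 and the named fibroblast markers were singled out after their values were seen. Exact permutation over 3 against 3 libraries cannot go below p = 0.1. The 10 genes and all lists were chosen with earlier results of these data known. The paper gives 3 hippocampi for each RNA-seq replicate and describes pooling only for the mass spectrometry runs. The p-values measure the spread between these libraries.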

Additional observations from a re-analysis of the deposited data

How the results depend on the processing

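The 10 genes were all called higher with the size factors of DESeq2, library size alone, the upper quartile, no filter, at least 10 counts in every library, the Wald test of DESeq2, limma-voom, limma on FPKM and the choroid plexus covariate, and no log2 fold change changed sign in any alternative. With a fold over 2 as the limit, 7 of 10 were called and Thbs2 (0.86), Itgav (0.78) and Sparc (0.43) were not. That limit also left 2760 genes in all, 4 other integrin subunits, 5 adaptors and 3 laminin subunits. Library size alone gave 11 other integrin subunits, where 8360 genes in all were called. Leaving out 1 library at a time gave 8 to 10 of the 10 genes, 5330 to 7976 genes in all (4054 higher and 3702 lower with all 6 libraries, against 2904 and 2426 without sham replicate 2), and 4 to 9 other integrin subunits (7 with all). With that setting the log2 ratios moved by 2.55 to 2.88 for Thbs1 to Thbs2, 2.94 to 3.63 for Itga5 to Itgav and -0.40 to -0.22 for Itgb3 to Itgb1.

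Libraries of the same number did not deviate together (correlations of -0.0967, 0.0556 and -0.184), and no library correlated best with its own number. No pairing by number was seen, but these correlations over 3 libraries a group cannot exclude a pairing or a shared batch. A replicate block gave 6332 called genes in place of 7756 and 8 of the 10 genes, with Thbs2 at 0.82 (adjusted p = 0.0532) and Sparc at 0.42 (0.0822). For each of the 3 ratios the exact p with the replicate block was 0.25, the smallest that 3 pairs allow; their differences cannot change in this balanced design.

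With 3 libraries a group, exact tests of single values cannot pass 0.05. Counts of 29 to 47 in sham limit the precision for Lox. Reads were counted on another strain's annotation, and its effect on these genes was not tested.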

Other observations

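Markers within the astrocyte, microglial and endothelial lists moved in both directions. Gfap, the intermediate filament of reactive astrocytes, was at 403 ± 30 CPM in sham and 1997 ± 368 CPM in I/R (SD, n = 3; log2 fold change 2.31, SE 0.17, edgeR adjusted p = 0.000269), while the glutamate transporters Slc1a2 (-0.96) and Slc1a3 (-0.46) and the connexin Gja1 (-0.70) were called lower. Of 9 microglial markers, 3 were higher and 4 lower. The purinergic receptor P2ry12 went from 25.8 ± 2.98 to 8.11 ± 2.93 CPM (SD, n = 3; log2 fold change -1.67, SE 0.26, edgeR adjusted p = 0.00209). Slco1a4, a transporter of brain endothelium, fell by 1.17 on the log2 scale (SE 0.31, edgeR adjusted p = 0.0181), while the endothelial genes Pecam1 (1.92), Cdh5 (1.91) and Emcn (2.0) rose. These genes were singled out after their values were seen.

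The next closest profiles after the first were Emilin2 and Dcn for Fn1, Steap4 and Zc3h12d for Thbs1, Notch4 and Tgfbr2 for Thbs2, and Plin2 and Serpina3m for Itga5. They were Spty2d1 and Ccdc59 for Itgav, Sh2b2 and Snrpa1 for Itgb1, Wdfy1 and Sec14l5 for Itgb3, Rab7b and Steap4 for Tgfbi, Irx3 and Adamts1 for Lox, and Vcp and Sf3b3 for Sparc. Steap4 was thus near both Thbs1 (difference 0.149) and Tgfbi (0.326). In the edgeR fit Zc3h12d changed more than Thbs1, by 5.03 (SE 0.83) against 3.61 on the log2 scale.

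Itgam, the alpha chain that pairs with Itgb2 on myeloid cells, was listed at 0 counts in all 6 libraries, while Itgb2 went from 4.98 ± 0.355 to 23.4 ± 6.8 CPM (SD, n = 3). Ilk, a kinase-like adaptor of most cells, was below the count filter at 0.106 ± 0.0697 CPM in sham and 0.275 ± 0.152 CPM in I/R (SD, n = 3). No statement on their expression is drawn from these rows.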
